A study of Mus musculus with 8 samples.

Results

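The 10 genes described here are imprinted, that is, expressed mainly from the chromosome inherited from 1 parent, and are known for their part in growth control: Igf2, H19, Grb10, Cdkn1c, Plagl1, Peg3, Mest, Dlk1, Meg3 and Gnas. They were chosen by name and taken as the 10 matching rows of a table of 53697 mouse genes, and all 10 passed the filter on low counts that left 18322 genes for testing. RNA was sequenced from mammary tumor cells of 4 MMTV-PyMT mice on a C57BL/6 background, in which the MMTV promoter drives the polyoma middle T oncogene in the mammary epithelium. Mice 1 and 2 carried the Dll1-GFP reporter, a knock-in (PyMT-Dll1GFP), and mice 3 and 4 the BAC-based Dll1-mCherry reporter (PyMT-Dll1mCh). From each mouse, cells positive and negative for the reporter were sorted as Dll1+ and Dll1- cells after removal of CD45, CD31 and Ter119 positive cells, so that the 8 libraries form 4 pairs and each reporter has 2 mice. All 8 libraries carry the oncogene and a reporter, the sort follows the reporter rather than the Dll1 protein, and neither the ages of the mice nor whether a library came from 1 tumor or several are given in the sources used here.

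Imprinted genes lie in domains in which a region methylated on 1 parental chromosome sets which copy is transcribed, and many of them act on fetal and placental growth. Paternally expressed members are often growth promoters, of which Igf2, the fetal insulin-like growth factor, is the best known, and maternally expressed members often restrain growth, as do the cyclin-dependent kinase inhibitor Cdkn1c (p57Kip2) and the receptor adaptor Grb10. Most are highest before birth and decline in adult tissues, where several remain in stem and progenitor cells. The counts used here hold no allelic information, so which parental copy was transcribed was not measured.

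The promoter windows below, each from 250 bases before to 50 bases after a transcription start in RefSeq (GRCm38.p6), are shown for the 4 members whose level differed between Dll1+ and Dll1- cells in some comparison, with each CpG, the dinucleotide that carries imprinting marks, in capitals. Plagl1 and Mest moved in opposite directions in all 4 mice, and Dlk1 and Meg3 are neighbours that moved together in PyMT-Dll1mCh mice. The Plagl1 window is at chr10:13090582-13090881, plus strand, the Mest window at chr6:30737800-30738099, plus strand, the Dlk1 window at chr12:109452573-109452872, plus strand, and the Meg3 window at chr12:109540746-109541045, plus strand.
Plagl1: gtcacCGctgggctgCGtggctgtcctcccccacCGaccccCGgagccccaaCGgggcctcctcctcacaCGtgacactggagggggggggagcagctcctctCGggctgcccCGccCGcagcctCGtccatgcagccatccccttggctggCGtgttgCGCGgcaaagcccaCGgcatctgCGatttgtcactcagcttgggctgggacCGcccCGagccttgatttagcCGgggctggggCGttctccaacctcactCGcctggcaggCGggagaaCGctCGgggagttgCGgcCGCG
Mest: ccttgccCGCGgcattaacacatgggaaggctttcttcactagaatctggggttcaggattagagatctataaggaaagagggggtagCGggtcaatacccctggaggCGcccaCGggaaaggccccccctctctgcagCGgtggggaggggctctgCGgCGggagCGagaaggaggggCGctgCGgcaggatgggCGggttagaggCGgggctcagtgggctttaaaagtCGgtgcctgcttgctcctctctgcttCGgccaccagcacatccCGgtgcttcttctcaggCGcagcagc
Dlk1: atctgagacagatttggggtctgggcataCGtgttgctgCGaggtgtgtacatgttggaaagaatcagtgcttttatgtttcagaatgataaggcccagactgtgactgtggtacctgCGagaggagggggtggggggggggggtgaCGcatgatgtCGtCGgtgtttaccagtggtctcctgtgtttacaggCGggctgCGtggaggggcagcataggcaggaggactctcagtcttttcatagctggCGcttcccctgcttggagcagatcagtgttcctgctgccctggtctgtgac
Meg3: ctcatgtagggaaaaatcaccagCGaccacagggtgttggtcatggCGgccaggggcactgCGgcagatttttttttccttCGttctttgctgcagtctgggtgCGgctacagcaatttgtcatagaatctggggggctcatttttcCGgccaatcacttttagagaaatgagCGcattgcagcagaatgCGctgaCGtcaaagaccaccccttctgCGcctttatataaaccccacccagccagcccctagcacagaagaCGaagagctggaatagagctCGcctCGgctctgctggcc
The Plagl1 window holds 26 CpG, the Mest window 17, the Meg3 window 13 and the Dlk1 window 9, against a median of 7 in the 32851 promoter windows of the same length. The 6-base core TGGGAA, bound by the Notch effector RBPJ, was searched on both strands and lies in 25.6% of all windows. Of the 4 windows shown it lies only in that of Mest, at position -228 from the start. Over the 8 members with an entry in the RefSeq table it lies in 6 of 18 windows, belonging to 4 members. H19 and Cdkn1c had no entry. Meg3 and Mest also have windows that are not shown. Another Meg3 window, at chr12:109545148-109545447, holds 1 CpG and 2 sites of the core. Another Mest window, at chr6:30733256-30733555, holds 8 CpG and lacks the core. A further Mest window, at chr6:30737803-30738102, overlaps the one shown. It holds the same site, at -231 from its own start, so this site is in both windows of the count.

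Total counts ranged from 27301396 to 123907626 per library, so that 3 counts, taken as the detection floor, correspond to 0.024 to 0.105 CPM, the counts scaled to library size and here TMM-normalized. Dll1, the sorted gene, was 7.61, 13.7, 34.7 and 50.3 CPM in the Dll1- cells of mice 1 to 4 and 87.5, 138, 203 and 250 CPM in their Dll1+ cells, higher in 4 of 4 mice. The 8 luminal epithelial markers summed to between 5576 and 9134 CPM in every library. Markers of other cells set the reporters apart: the 12 fibroblast markers summed to 1326 to 1544 CPM in the 4 PyMT-Dll1GFP libraries, but to 8860 and 25343 CPM in the Dll1- cells and 3971 and 4019 CPM in the Dll1+ cells of mice 3 and 4. The 9 pericyte and smooth muscle markers summed to 237 to 289 CPM in PyMT-Dll1GFP mice, to 786 and 982 CPM in PyMT-Dll1mCh Dll1- cells and to 388 and 300 CPM in PyMT-Dll1mCh Dll1+ cells, and none of these 21 fibroblast and pericyte markers was at 0 in any library. Markers of endothelial and immune cells, which the sort was set to remove, were low but followed the same order, with endothelial sums of 50.9 to 56.3 CPM in PyMT-Dll1GFP mice and 167 and 381 CPM in PyMT-Dll1mCh Dll1- cells.

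Per kb of exon, Gnas was the most abundant member, with a mean of 82.5 CPM per kb over the 8 libraries and a range of 65.6 to 105 CPM per kb, and it was above H19 in 8 of 8 libraries with no overlap. Gnas encodes the stimulatory G protein alpha subunit and is imprinted only from some of its promoters. H19, a maternally expressed long noncoding RNA, followed at 14.2 CPM per kb, then Cdkn1c at 5.62, Grb10 at 4.16, Peg3 at 3.60, Plagl1 at 2.56, Mest at 2.53, Meg3 at 1.15, Dlk1 at 0.314 and Igf2 at 0.238 CPM per kb. All neighbours in this order below H19 overlapped in range, as did H19 and Cdkn1c. Grb10 exceeded Peg3 in 4 of 8 libraries, Plagl1 exceeded Mest in 4 of 8, and Dlk1 exceeded Igf2 in 3 of 8, so these pairs have no order beyond their spread. The plot of levels per length shows every library of each member.

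**Figure D1:**
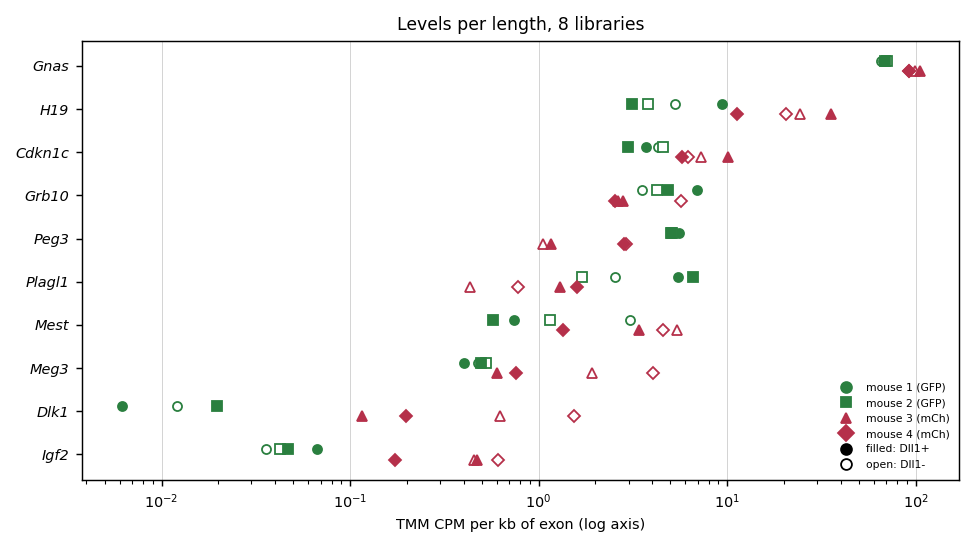
TMM CPM per kb of exon on a log axis for each member in the 8 libraries, PyMT-Dll1GFP in green and PyMT-Dll1mCh in red, Dll1+ filled and Dll1- open. Gnas lies between 65.6 and 105 CPM per kb in every library, above all other members, and the Dlk1 library of mouse 2 Dll1- cells, with 0 counts, is not drawn.

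The first comparison asks which members differ between Dll1+ and Dll1- cells of the same mouse. Over the 4 mice, Plagl1 was higher and Mest lower in Dll1+ cells, and the other 8 members did not pass the test (edgeR quasi-likelihood test with the mouse as a block, adjusted p under 0.05). That is 1 of 10 members higher and 1 of 10 lower, beside 6.98% of all tested genes higher and 7.04% lower, so the share of members called was close to that of the genome. The median log2 fold change of the members was -0.05, or 0.02 without Dlk1, against -0.001 over all tested genes. No member had Dll1+ and Dll1- levels that did not overlap over the 4 mice, beside 2.74% of all tested genes higher and 3.33% lower without overlap. In bulk samples, fewer cells of a type and less RNA per cell cannot be told apart, which holds for every difference below.

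**Figure D2:**
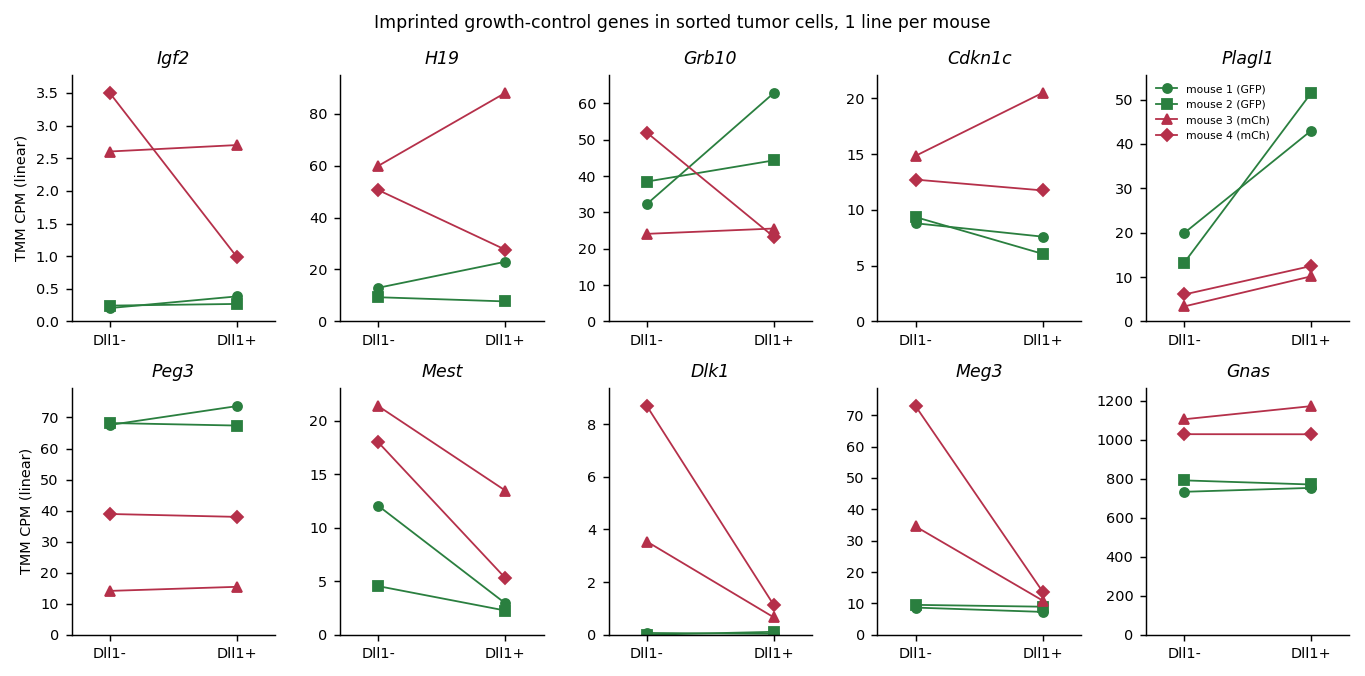
TMM CPM (linear axis from 0) of each member in Dll1- and Dll1+ cells, 1 line per mouse, PyMT-Dll1GFP mice in green and PyMT-Dll1mCh mice in red. Plagl1 rises and Mest falls in all 4 mice, Dlk1 and Meg3 fall steeply only in the lines of mice 3 and 4, and Gnas and Peg3 are nearly flat within each mouse.

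Plagl1 (chr10:13060504-13131694, plus strand), a paternally expressed zinc finger transcription factor that restrains proliferation and regulates other imprinted genes, was 19.9, 13.2, 3.39 and 6.08 CPM in the Dll1- cells of mice 1 to 4 and 43.0, 51.5, 10.2 and 12.5 CPM in their Dll1+ cells. It was higher in the Dll1+ cells of 4 of 4 mice, by 2.16-fold, 3.89-fold, 3.005-fold and 2.06-fold. The fitted log2 fold change was 1.43 ± 0.17 (SE, n = 4 mice), 2.69-fold, with an adjusted p of 0.0097. It was also called within PyMT-Dll1GFP mice, with 1.53 ± 0.25 and an adjusted p of 0.0282. Within PyMT-Dll1mCh mice it was called with 1.33 ± 0.25 and an adjusted p of 0.0385. Both effects came from 1 fit of all 8 libraries with a shared estimate of the spread. With each reporter fitted alone, Plagl1 was called in PyMT-Dll1GFP mice and not in PyMT-Dll1mCh mice. Its rise did not differ between the reporters beyond the error, with a difference of -0.21 ± 0.35 on the log2 scale and an adjusted p of 0.863. Without mouse 3 the adjusted p over the remaining mice was 0.0579, with a log2 fold change of 1.38, and with each of the others left out in turn it was 0.0119 to 0.0438. The calls within 1 reporter were lost when either mouse of that reporter was left out. Beside the rise of Plagl1, basal epithelial markers were also higher in Dll1+ cells, with 4 of 7 called over the 4 mice and medians of 1.07, 0.71, 2.60 and 1.52 on the log2 scale in mice 1 to 4, while the fibroblast markers had medians of -0.06, -0.12, -1.37 and -2.80. Their part in the result was not tested.

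Mest (chr6:30723547-30748465, plus strand), a paternally expressed member of the alpha/beta hydrolase family first described in mesoderm, went the other way. Its level was 12.04, 4.54, 21.3 and 18.0 CPM in Dll1- cells and 2.93, 2.26, 13.5 and 5.29 CPM in Dll1+ cells of mice 1 to 4. Each Dll1+ library was below its Dll1- partner, at 0.243, 0.498, 0.631 and 0.294 of its level. The model over 4 mice gave -1.36 ± 0.25 (SE) on the log2 scale, 2.56-fold lower, with an adjusted p of 0.0278. In the fit of all libraries with an effect per reporter, it was -1.53 ± 0.40 in PyMT-Dll1GFP mice with an adjusted p of 0.0896. In PyMT-Dll1mCh mice it was -1.20 ± 0.36 with an adjusted p of 0.105. With each reporter fitted alone, Mest was called in PyMT-Dll1GFP mice and not in PyMT-Dll1mCh mice. The call over 4 mice was lost on leaving out any 1 mouse, with adjusted p from 0.0515 to 0.0829 and log2 fold changes from -1.61 to -1.14. Mest was lower in mice 1 and 2, whose fibroblast markers had medians of -0.06 and -0.12, as well as in mice 3 and 4, where they were -1.37 and -2.80, and the basal markers had medians of 1.07, 0.71, 2.60 and 1.52 in mice 1 to 4. The part of these cells in the result was not tested. The last 912 bases of Mest overlap Copg2 on the opposite strand, which held 2000 to 9789 counts per library, and the strand setting used in counting is not given in the sources used here.

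Dlk1 (chr12:109452823-109463336, plus strand) and Meg3 (chr12:109541001-109571726, plus strand) lie 77.7 kb apart in 1 imprinted domain. Dlk1 is paternally expressed and encodes a membrane protein of the Delta family that lacks the Notch-binding DSL domain, and Meg3 is a maternally expressed long noncoding RNA. In PyMT-Dll1mCh mice both were lower in Dll1+ cells. Meg3 was 34.5 and 72.9 CPM in the Dll1- cells of mice 3 and 4 and 10.9 and 13.7 CPM in their Dll1+ cells. That was a log2 fold change of -2.03 ± 0.19 (SE) for 2 mice, 4.09-fold lower, with an adjusted p of 0.0088. This SE and adjusted p, and those of Dlk1 below, came from a fit of all 8 libraries with a shared estimate of the spread. With PyMT-Dll1mCh mice fitted alone, neither gene was called, nor was any other tested gene. Dlk1 was 3.54 and 8.69 CPM in Dll1- and 0.656 and 1.12 CPM in Dll1+ cells of the same mice, from 442, 263, 43 and 62 counts, a log2 fold change of -2.70 ± 0.42, 6.49-fold lower, with an adjusted p of 0.0187. The 2 groups of 2 libraries did not overlap for either gene, and leaving out mouse 3 or 4 kept Meg3 (adjusted p = 0.000657 and 0.0125) while Dlk1 then did not pass the filter. Dlk1 passed the filter only through its PyMT-Dll1mCh libraries.

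In PyMT-Dll1GFP mice the same domain was low and flat. Meg3 was 8.67 and 9.53 CPM in the Dll1- cells of mice 1 and 2 and 7.29 and 8.95 CPM in their Dll1+ cells, with a log2 fold change of -0.17 ± 0.20 and an adjusted p of 0.665. Dlk1 was barely detected there, with 2 and 0 counts in Dll1- and 1 and 5 counts in Dll1+ cells, and no fold is given at this depth. Over all 4 mice neither gene was called, with adjusted p of 0.162 for Meg3 at -1.15 ± 0.46 and 0.118 for Dlk1 at -2.14 ± 0.75, the latter resting on the counts of mice 3 and 4.

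Rian, a maternally expressed noncoding RNA that begins 32.2 kb beyond Meg3, kept the same pattern as its neighbour. It was 17.2 and 42.0 CPM in the Dll1- and 5.97 and 7.92 CPM in the Dll1+ cells of mice 3 and 4, with a log2 fold change of -1.97 ± 0.23 and an adjusted p of 0.0109, and 3.66 to 4.12 CPM in all 4 PyMT-Dll1GFP libraries. Mirg, further along the domain, held 112 and 65 counts in PyMT-Dll1mCh Dll1- cells, 16 and 19 in Dll1+ cells, and 2 to 7 in PyMT-Dll1GFP libraries, and did not pass the filter. Markers of several non-epithelial cell types moved with the domain. In PyMT-Dll1mCh mice, 5 of 12 fibroblast and 6 of 9 pericyte and smooth muscle markers were lower in Dll1+ cells and none was higher (edgeR, with 10 and 8 at an unadjusted p under 0.05). In PyMT-Dll1GFP mice 0 and 0 were called, with 0 and 3 at an unadjusted p under 0.05. Also lower in PyMT-Dll1mCh mice were 6 of 7 immune, 4 of 5 erythroid, 3 of 8 endothelial and 2 of 2 adipocyte markers tested, and 0 of 3 skeletal muscle markers. In PyMT-Dll1GFP mice 1 erythroid marker of these lists was lower. Over the 8 libraries Meg3 was highest in the library with the highest fibroblast sum, mouse 4 Dll1-, and next in mouse 3 Dll1-, as the plot of Meg3 and Plagl1 against marker sums shows. The part of these cells in the result was not tested.

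**Figure D3:**
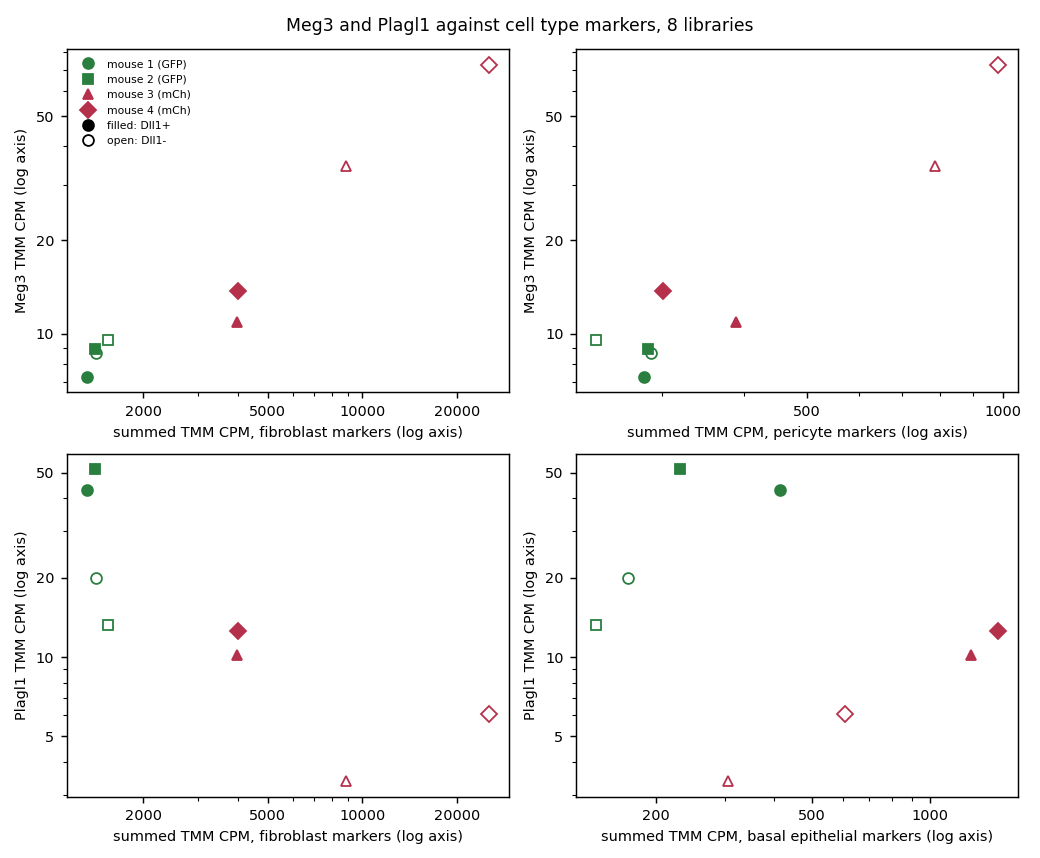
TMM CPM of Meg3 (top) and Plagl1 (bottom) against the summed CPM of fibroblast, pericyte or basal epithelial markers in the 8 libraries, on log axes, with colors for the reporter, filled symbols for Dll1+ and open symbols for Dll1- cells. Meg3 at 34.5 and 72.9 CPM belongs to the libraries with fibroblast sums of 8860 and 25343 CPM, and Plagl1 is higher in the filled than in the open symbol of each mouse.

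Igf2 (chr7:142650766-142666816, minus strand) and H19 (chr7:142575529-142578143, minus strand) lie 72.6 kb apart and share enhancers, with Igf2 active on the paternal and H19 on the maternal chromosome. Igf2 was near the floor in PyMT-Dll1GFP mice, with 6, 11, 7 and 12 counts in mouse 1 Dll1-, mouse 1 Dll1+, mouse 2 Dll1- and mouse 2 Dll1+ cells. In PyMT-Dll1mCh mice it was 2.60 and 3.50 CPM in Dll1- and 2.70 and 0.989 CPM in Dll1+ cells. Igf2 was hence nearly equal in the pair of mouse 3, at 1.04-fold, and lower in Dll1+ cells of mouse 4, at 0.283 of the Dll1- level, with a fitted log2 fold change over 4 mice of -0.37 ± 0.47 and an adjusted p of 0.630. H19 was 12.96, 9.32, 59.9 and 50.6 CPM in Dll1- and 23.0, 7.72, 88.0 and 27.6 CPM in Dll1+ cells, higher in 2 mice and lower in 2, one of each reporter, with a log2 fold change of 0.06 ± 0.31 and an adjusted p of 0.906. The pairs of both genes thus spread more widely than their mean difference.

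Grb10 (chr11:11930508-12038683, minus strand), a maternally expressed adaptor that binds and dampens the insulin and IGF1 receptors, was 32.3, 38.5, 24.1 and 51.9 CPM in Dll1- and 62.9, 44.3, 25.6 and 23.2 CPM in Dll1+ cells. It was higher in Dll1+ cells of mice 1, 2 and 3 and lower in mouse 4, with a log2 fold change of 0.03 ± 0.35 and an adjusted p of 0.962. Of 12 other IGF and insulin pathway genes tested, 2 were higher and 1 lower over the 4 mice, with a median of 0.003. Igfbp5, a secreted IGF binding protein, was higher by 1.17 ± 0.11 on the log2 scale (adjusted p = 0.00633), rising from 4626 to 11483 CPM across Dll1- libraries to 12031 to 23912 CPM across Dll1+ libraries. Irs1, a receptor substrate, was higher by 0.77 ± 0.13 (adjusted p = 0.0189), and Igf2bp2, a binding protein of Igf2 and other mRNAs, was lower by -1.25 ± 0.27 (adjusted p = 0.0345) at 2.64 CPM or less. The receptors Igf1r and Insr and the Igf2 clearance receptor Igf2r were not called, at -0.25 ± 0.10, 0.11 ± 0.07 and -0.21 ± 0.07.

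Cdkn1c (chr7:143458339-143461050, minus strand) was 8.80, 9.36, 14.8 and 12.7 CPM in Dll1- and 7.60, 6.06, 20.5 and 11.7 CPM in Dll1+ cells. It was lower in Dll1+ cells of 3 mice and higher in mouse 3, at -0.11 ± 0.18 on the log2 scale with an adjusted p of 0.705. Within the reporters the values were -0.42 ± 0.19 in PyMT-Dll1GFP mice (adjusted p = 0.230) and 0.18 ± 0.18 in PyMT-Dll1mCh mice (adjusted p = 0.550). A rise of this cell cycle inhibitor in Dll1+ cells was thus not detected in these libraries.

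Peg3 and Gnas were the steadiest members within mice. Peg3 (chr7:6703892-6730431, minus strand), a paternally expressed zinc finger protein, was 67.6, 68.2, 14.1 and 38.9 CPM in Dll1- and 73.7, 67.4, 15.4 and 38.0 CPM in Dll1+ cells, a log2 fold change of 0.05 ± 0.06 with an adjusted p of 0.592. Gnas (chr2:174284320-174346744, plus strand) was 733, 792, 1105 and 1029 CPM in Dll1- and 753, 771, 1173 and 1028 CPM in Dll1+ cells, with 0.02 ± 0.07 and an adjusted p of 0.859. For both genes, the difference between the sorted populations of 1 mouse was small beside that between PyMT-Dll1GFP and PyMT-Dll1mCh mice. This does not hold between mice 1 and 2, where Peg3 was 67.6 and 68.2 CPM in Dll1- cells. The rows of the table sum all transcripts of a gene, so the imprinted promoters of Gnas could not be followed separately.

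**Figure D4:**
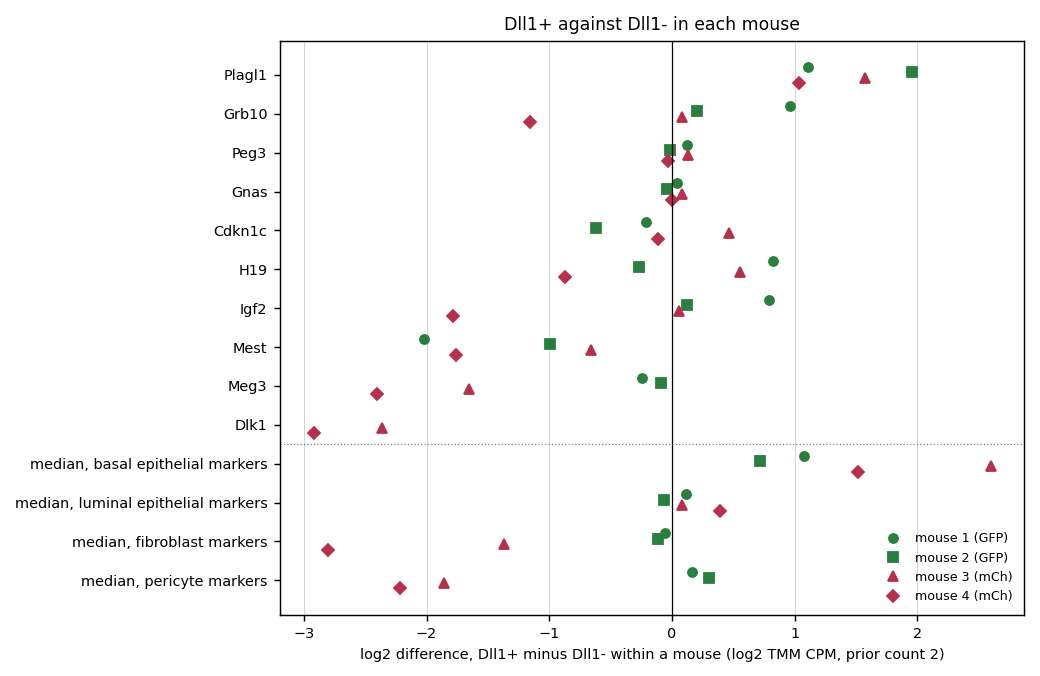
Difference of log2 TMM CPM (prior count 2), Dll1+ minus Dll1-, in each mouse for the members and, below the dotted line, the median over cell type markers. Plagl1 lies at 1.04 to 1.96 and Mest at -2.02 to -0.66 in all 4 mice, Meg3 lies at -1.66 and -2.40 in mice 3 and 4 and near 0 in mice 1 and 2, the fibroblast and pericyte medians lie between -2.80 and -1.37 in mice 3 and 4, and Dlk1 is drawn only for mice 3 and 4.

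Within PyMT-Dll1GFP mice, 1 of 10 members was higher (Plagl1) and 0 lower, beside 4.29% and 4.84% of all tested genes. Within PyMT-Dll1mCh mice, 1 was higher (Plagl1) and 2 lower (Dlk1 and Meg3), beside 5.51% and 6.25%. Whether the Dll1+ effect itself differed between the reporters was tested as a contrast. No member passed (edgeR, with 2 of 10, Dlk1 and Meg3, at an unadjusted p under 0.05), where 0.00546% of all tested genes had a higher and 0.0655% a lower effect in PyMT-Dll1mCh mice. Meg3 came nearest, with a difference of -1.87 ± 0.28 and an adjusted p of 0.0881. DESeq2 called Meg3 in this contrast (adjusted p = 5.73e-06), and so did edgeR without mouse 3 (adjusted p = 0.00295). Dlk1 had an adjusted p of 0.282, and Grb10 stood at -1.11 ± 0.55, Igf2 at -1.34 ± 0.87 and Cdkn1c at 0.60 ± 0.27, with adjusted p of 0.519, 0.589 and 0.411.

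The other comparison sets the reporter lines against each other. Over the 4 libraries of each line, 6 members (H19, Igf2, Dlk1, Meg3, Cdkn1c and Gnas) were higher without overlap in PyMT-Dll1mCh than in PyMT-Dll1GFP mice. A further 2 (Plagl1 and Peg3) were lower without overlap, and Mest and Grb10 overlapped. Of all tested genes, 21.5% were higher and 21.8% lower without overlap. Dlk1 passed the filter only through its PyMT-Dll1mCh libraries, and Igf2 would not have passed on its PyMT-Dll1GFP libraries alone. Their places in this count are therefore no test, and the counts without Dlk1 that follow still hold Igf2. In Dll1- cells, 5 of 10 members were called higher and 1 lower, or 4 and 1 of 9 without Dlk1, beside 18.7% and 17.9% of all tested genes, and the median log2 fold change was 0.93, or 0.60 without Dlk1, against 0.01 over all tested genes. In Dll1+ cells, 4 were called higher and 1 lower, or 3 and 1 of 9 without Dlk1, beside 15.2% and 15.4%, with a median of 0.92, or 0.60 without Dlk1, against 0.07. Reporter line, mouse and tumor cannot be told apart here, and each line is 2 mice. The fit also counts the 2 libraries of a mouse as separate, so its spread rests on fewer independent units than libraries. Both comparisons lost every member call when mouse 1 or mouse 2 was left out, and kept member calls without mouse 3 or 4. Each of these fits leaves 1 mouse in a line. Calls over all tested genes also varied widely with the mouse left out, so such losses are not particular to the members. The cause was not tested.

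Among the members higher in PyMT-Dll1mCh mice, Igf2 had a log2 fold change of 3.75 ± 0.59 in Dll1- cells (adjusted p = 0.00451) and 2.52 ± 0.55 in Dll1+ cells (adjusted p = 0.0171). From the summed counts, 431 against 13 in Dll1- and 232 against 23 in Dll1+ cells, the ratio of Igf2 was 12.4 (95% exact interval 7.19 to 23.5) and 6.11 (3.98 to 9.83). The same ratio for Dlk1, from 705 against 2 and 105 against 6 counts, was 132 (36.5 to 1093) in Dll1- and 10.6 (4.71 to 29.6) in Dll1+ cells. These intervals cover counting error only. The filter asked for 0.262 CPM in 4 libraries, which Dlk1 reached in 4 PyMT-Dll1mCh and 0 PyMT-Dll1GFP libraries and Igf2 in 4 and 2. Dlk1 thus entered the table only through the line in which it is high, and its call between the lines is no test. Igf2 would not have passed on its PyMT-Dll1GFP libraries alone, so its calls between the lines carry the same limit. With the mouse as a random block (limma-voom), Igf2 kept its call in Dll1- cells (adjusted p = 0.0238) and lost it in Dll1+ cells (adjusted p = 0.0759).

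H19 was higher by 2.31 ± 0.67 in Dll1- cells (adjusted p = 0.0355, or 0.0694 with the mouse as a random block) and by 1.92 ± 0.66 in Dll1+ cells (adjusted p = 0.0650). Meg3 was higher by 2.56 ± 0.36 in Dll1- cells (adjusted p = 0.00337), and in Dll1+ cells stood at 0.60 ± 0.34 (adjusted p = 0.221). Cdkn1c had 0.60 ± 0.27 in Dll1- cells (adjusted p = 0.128) and was higher by 1.24 ± 0.28 in Dll1+ cells (adjusted p = 0.0183). The change of Gnas was small and even, 0.48 ± 0.12 in Dll1- (adjusted p = 0.0206) and 0.53 ± 0.12 in Dll1+ cells (adjusted p = 0.0193). Mest was not called, at 1.25 ± 0.56 and 1.86 ± 0.58 with adjusted p of 0.124 and 0.0509.

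Plagl1 was the exception among the called members, lower in PyMT-Dll1mCh mice by -1.84 ± 0.33 in Dll1- cells (3.57-fold, adjusted p = 0.00708) and by -2.06 ± 0.32 in Dll1+ cells (4.17-fold, adjusted p = 0.00717). Its highest PyMT-Dll1mCh library, 12.5 CPM in the Dll1+ cells of mouse 4, was below its lowest PyMT-Dll1GFP library, 13.2 CPM in the Dll1- cells of mouse 2. Peg3 was lower without passing the test, by -1.37 ± 0.54 and -1.40 ± 0.54 with adjusted p of 0.0915 and 0.0913, and passed it with the mouse as a random block (adjusted p = 0.0254 and 0.0342). Grb10 stood at 0.10 ± 0.35 in Dll1- and -1.13 ± 0.35 in Dll1+ cells, with adjusted p of 0.855 and 0.0511. Beside these values, 12 of 12 fibroblast markers were higher in PyMT-Dll1mCh mice in Dll1- cells and 7 of 12 in Dll1+ cells. For pericyte and smooth muscle markers it was 7 and 5 of 9, with 0 and 1 lower. In Dll1- cells 8 of 8 endothelial, 7 of 7 immune, 4 of 5 erythroid and 2 of 2 adipocyte markers tested were also higher. In Dll1+ cells these were 2, 4, 4 and 0, and 0 of 3 skeletal muscle markers were called in either. Their part in the differences of the members was not tested.

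**Figure D5:**
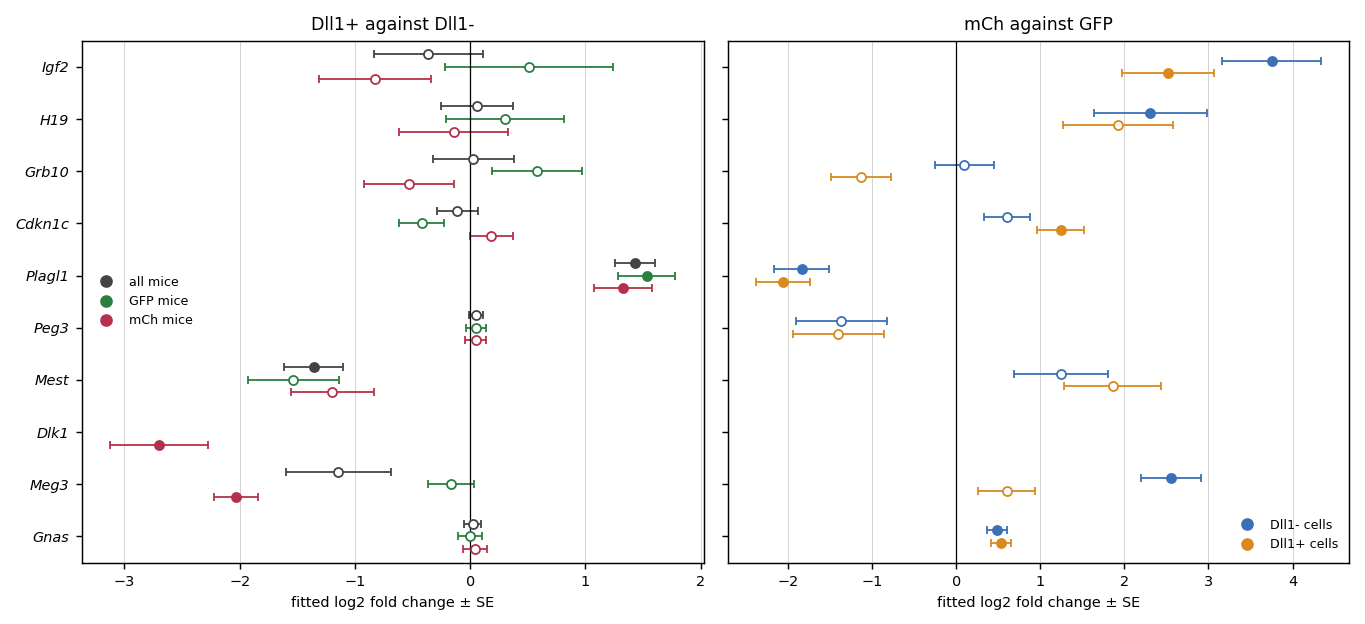
Fitted log2 fold change with its SE for each member, Dll1+ against Dll1- (left) over all mice and within each reporter, and PyMT-Dll1mCh against PyMT-Dll1GFP (right) in Dll1- and Dll1+ cells, with filled circles for an adjusted p under 0.05. Plagl1 is filled on the right of 0 in all 3 estimates of the left panel and on the left of 0 in both estimates of the right panel, and for Dlk1 only the estimate within PyMT-Dll1mCh mice is drawn, as the others rest on 0 to 5 counts in a library.

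Other imprinted genes, taken from lists of paternally and maternally expressed genes, were followed in the same fits, beside the 6.98% and 7.04% of all genes called over 4 mice. Of 19 other paternally expressed genes tested (of 26 listed), 1 was higher in Dll1+ cells over the 4 mice and 0 lower, with a median of -0.10. It was Zrsr1, a splicing factor gene, at 0.42 ± 0.08 (adjusted p = 0.0252), from 12.6 to 17.5 CPM in Dll1- to 16.4 to 23.96 CPM in Dll1+ cells. Of 19 other maternally expressed genes tested (of 27 listed), 3 were higher and 0 lower, with a median of 0.009. In each list 7 of 19 had an unadjusted p under 0.05, as had 5936 of all 18322 tested genes. Cd81, a tetraspanin of the Kcnq1 domain, was higher by 0.55 ± 0.07 (adjusted p = 0.0109), Osbpl5, a lipid transfer protein of the same domain, by 0.34 ± 0.08 (adjusted p = 0.0389), and the ubiquitin ligase Ube3a by 0.32 ± 0.07 (adjusted p = 0.0396). Rasgrf1, a paternally expressed exchange factor for Ras, was lower in 4 of 4 mice at -1.87 ± 0.48 and did not pass the test (adjusted p = 0.0629).

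Within PyMT-Dll1mCh mice, the paternally expressed Sgce and Ndn were lower in Dll1+ cells along with Dlk1, by -1.50 ± 0.23 (adjusted p = 0.0176) and -2.38 ± 0.39 (adjusted p = 0.0226). Sgce encodes a sarcoglycan of the muscle membrane complex, and Ndn (necdin) a growth suppressor. Sgce was 9.95 and 30.4 CPM in the Dll1- and 4.61 and 8.17 CPM in the Dll1+ cells of mice 3 and 4, but 1.74 and 3.74 CPM in the Dll1- and 4.25 and 6.49 CPM in the Dll1+ cells of mice 1 and 2, where its log2 fold change was 1.02 ± 0.25 (adjusted p = 0.0621). For Sgce the contrast of the 2 effects was -2.52 ± 0.34, with an adjusted p of 0.0761. Ndn was 5.43 and 17.8 CPM in the Dll1- and 1.76 and 2.03 CPM in the Dll1+ cells of mice 3 and 4, and 0.273 to 0.425 CPM in all PyMT-Dll1GFP libraries. Igfbp6, a binding protein with preference for Igf2, was lower by -2.91 ± 0.48 (adjusted p = 0.0424), and Igf1 stood at -1.52 ± 0.35 (adjusted p = 0.0656). In this reporter 2 of 19 other paternally expressed genes were lower and 0 higher, and 1 of 19 other maternally expressed genes, Rian, was lower and 3 higher. These genes were higher in the same libraries as the markers of fibroblasts, pericytes and several other non-epithelial cells, whose part was not tested.

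Across the 8 libraries, the genes whose log2 CPM ran most like that of each member were found among 14905 genes whose mean reached 1 CPM, as a description in which all points share reporter, mouse and depth. Plagl1 ran with the transcription factor Stat3 (Pearson r = 0.992) and Fam214b (0.992). Meg3 ran closest with Zeb2 (0.995), a transcription factor of epithelial-mesenchymal transition, Tmem132c (0.994) and its neighbour Rian (0.993). Dlk1 ran with Nfam1 (0.994), Clec4a3 (0.991) and Clec4n (0.991), the latter 2 lectins of myeloid cells, and Igf2 with Gskip (0.991), the matrix proteoglycan Vcan (0.991) and Apoe (0.989). The nearest genes were Phf10 (0.998) for Mest, Arhgef10 (0.992) for H19, Rock2 (0.992) for Peg3, Cript (0.992) for Gnas, Cldn10 (0.986) for Cdkn1c and Ptpdc1 (0.968) for Grb10. Between members, Igf2 and H19 had r = 0.932, Dlk1 and Meg3 r = 0.900, and Plagl1 and Mest r = -0.870, all over the 8 libraries.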

How the data were processed

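RNA was sequenced from Dll1+ and Dll1- tumor cells of 4 mice, 8 libraries in all (TruSeq stranded kit). Quantification was by the authors, with Salmon against the GENCODE M20 transcriptome of GRCm38.p6 and tximport for the gene level, and the deposited values are estimated counts in whole numbers that were not normalized; the Salmon version and strand setting are not given in the sources used here. The table holds 0 columns of other samples. Symbols came from GENCODE M21 on the same build, matched by identifier without its version for 53668 of 53697 genes; exon lengths, positions and overlaps also came from M21, and promoters from RefSeq. The overlapping gene models on the strand of Igf2 and of H19, such as Mir675, held 0 counts.

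Counts were tested with edgeR 4.0.16 (R 4.3.3): TMM, filterByExpr on Dll1 status, a robust quasi-likelihood F test, and Benjamini-Hochberg adjustment over 18322 genes at 0.05. Dll1+ was compared with Dll1- with the mouse as a block, once over 4 mice, following the 2-factor model of the study's methods. It was compared again with an effect per reporter, from all 8 libraries with 1 shared estimate of the spread. PyMT-Dll1mCh was compared with PyMT-Dll1GFP by 4 group means. That fit counts the libraries of a mouse as separate, so its spread rests on fewer independent units than libraries. The 2 libraries of a mouse were paired from the labelled mouse; deviations from the group means correlated at -0.047 in PyMT-Dll1GFP and 0.554 in PyMT-Dll1mCh mice. SE is the log2 fold change over the root of F. Log2 CPM used a prior count of 2. Alternatives were RLE factors, DESeq2 1.42.0, no filter, at least 10 counts in every library, no replicate block, each reporter or Dll1 status fitted alone, limma 3.58.1 voom with the mouse as a random block, and each mouse left out in turn. The scripts were tested on simulated data.

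The members, the gene lists and the markers were chosen with earlier results of these data known. All 10 members are named in every comparison; of other lists, up to 5 genes with the lowest p per comparison, and per member up to 3 genes of highest correlation, of which 1 is not reported here. Mirg, Rasgrf1 in 4 mice, Igf1r, Insr, Igf2r and the CPM ranges of list genes were chosen after their values were seen.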

Additional observations from a re-analysis of the deposited data

Results flagged for a closer look

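The Dll1+ effect differed between the reporters, by the test of the difference itself, for 2 genes of the lists beside the members. Igfbp4, a secreted IGF binding protein, was higher in the Dll1+ cells of PyMT-Dll1GFP mice, 28.6 and 30.5 CPM in Dll1- against 46.8 and 50.5 CPM in Dll1+ cells, and lower in those of PyMT-Dll1mCh mice, 176 and 440 against 119 and 255 CPM. The difference was -1.40 ± 0.12 on the log2 scale (edgeR, adjusted p = 0.0377). Atp10a, a maternally expressed phospholipid transporter in some tissues, was 5.90 and 5.62 CPM in the Dll1- and 18.1 and 19.97 CPM in the Dll1+ cells of PyMT-Dll1GFP mice, and 11.2 and 14.7 CPM in the Dll1- and 9.02 and 9.66 CPM in the Dll1+ cells of PyMT-Dll1mCh mice, a difference of -2.18 ± 0.20 (adjusted p = 0.0396). The same test passed for the pericyte markers Rgs5 (-3.10, adjusted p = 0.0233), Kcnj8 (-2.41, adjusted p = 0.0377) and Abcc9 (-2.76, adjusted p = 0.0356). The part of pericytes or of other cells in the differences of Igfbp4 and Atp10a was not tested.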

How the results depend on the processing

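Of the values of called members under alternatives, 111 kept their call, 48 fell short of it and 0 changed direction; of those of members not called, 332 stayed so, 34 passed and 39 changed direction. In PyMT-Dll1GFP mice 2 members (Mest and Plagl1) rather than 1 were called by DESeq2, without a filter or with the reporter fitted alone. The difference between reporters gave 1 call by DESeq2 (Meg3) and 2 without a filter (Dlk1 and Meg3) against 0. DESeq2 called 9 members rather than 5 between reporters in Dll1+ cells. With no replicate block, the 2 calls over 4 mice became 0 with Dll1 status alone (edgeR, 1 at an unadjusted p under 0.05) and 1 with the reporter as a term (Plagl1), and 4 group means gave 0 in PyMT-Dll1GFP mice (edgeR, 2 at an unadjusted p under 0.05) and 1 in PyMT-Dll1mCh mice (Meg3) against 1 and 3. PyMT-Dll1mCh mice fitted alone gave 0 calls (edgeR, 4 at an unadjusted p under 0.05). The mouse as a random block gave 6 and 4 calls between reporters, and the cause of these shifts was not tested.

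Leaving out each mouse in turn gave 0 to 2 calls over 4 mice, 0 to 2 in PyMT-Dll1GFP mice, 1 to 3 in PyMT-Dll1mCh mice, 0 to 1 for the difference, and 0 to 6 and 0 to 7 between reporters in Dll1- and Dll1+ cells. The 0 calls came without mouse 3 (4 mice, 2 at an unadjusted p under 0.05) and without mouse 1 or 2 (2 at an unadjusted p under 0.05 in PyMT-Dll1GFP mice, and 5 or 6 between reporters), where 1 mouse of that reporter remained and was assumed to vary like the others.

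Changes of direction were confined to members not called. Gnas in PyMT-Dll1GFP mice turned from -0.0001 to 0.0154 with RLE and with DESeq2, 0.0074 without a filter, 0.0047 with at least 10 counts and 0.0086 with the reporter alone. With no replicate block Cdkn1c stood at 0.0061 and Grb10 at -0.0189 over 4 mice, and H19 at 0.0654 in PyMT-Dll1mCh mice; with the random replicate block Grb10 stood at -0.1017 between reporters in Dll1- cells. With each mouse left out, the log2 ranges that crossed 0 were, over 4 mice, -0.1845 to 0.3952 for H19, -0.6259 to 0.2677 for Igf2, -0.3157 to 0.0593 for Cdkn1c, -0.0002 to 0.0446 for Gnas and -0.28 to 0.408 for Grb10. In PyMT-Dll1GFP mice they were -0.267 to 0.8272 for H19, -0.0116 to 0.1254 for Peg3, -0.0331 to 0.0402 for Gnas and -0.9242 to 5.7443 for Dlk1, the last resting on 0 to 5 counts. In PyMT-Dll1mCh mice they were -0.8942 to 0.5261 for H19, -1.8409 to 0.0247 for Igf2, -0.0564 to 0.0997 for Peg3, -0.1357 to 0.4362 for Cdkn1c, -0.022 to 0.0566 for Gnas and -1.182 to 0.0563 for Grb10. For the difference they were -1.2106 to 0.2018 for H19, -0.2635 to 0.8454 for Mest, -0.12 to 0.0599 for Peg3, -0.6422 to 0.2142 for Plagl1 and -0.0328 to 0.0774 for Gnas, and between reporters in Dll1- cells -0.5099 to 0.5491 for Grb10.

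Over all genes, calls over 4 mice went from 2568 to 4362 by DESeq2, 1352 with reporter and Dll1 status and 0 with Dll1 status alone (edgeR, 1624 at an unadjusted p under 0.05); in PyMT-Dll1GFP mice from 1673 to 3001 without a filter and 274 with 4 group means; in PyMT-Dll1mCh mice from 2154 to 3637, 212 and, fitted alone, 0 (edgeR, 5512 at an unadjusted p under 0.05); and for the difference from 13 to 540 by DESeq2, 1143 without a filter, 44 with at least 10 counts and 0 with 4 group means (edgeR, 1309 at an unadjusted p under 0.05). Outside the comparison within PyMT-Dll1mCh mice, calls over all genes also varied widely with the mouse left out. The shifts of member calls in those fits are therefore not particular to the members. Depth limits Dlk1 and Igf2 in PyMT-Dll1GFP mice, with 0 to 12 counts a library.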

Other observations

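Of 16 tested factors linked to imprints or DNA methylation (of 20 listed), 2 were lower in Dll1+ cells over the 4 mice and 0 higher. Their median log2 fold change was 0.06, and 7.04% and 6.98% of all tested genes were called lower and higher. The list mixes maintenance factors with others, such as the methyltransferases Dnmt3a and Dnmt3b and the dioxygenases Tet1, Tet2 and Tet3, so its counts do not describe imprint maintenance alone. Uhrf1, which recruits the maintenance methyltransferase to newly copied DNA, was 60.9, 57.5, 128 and 86.6 CPM in Dll1- and 23.4, 26.3, 50.3 and 48.5 CPM in Dll1+ cells of mice 1 to 4, a log2 fold change of -1.17 ± 0.10 (edgeR, adjusted p = 0.00534). Dnmt1, the maintenance methyltransferase itself, was 212, 199, 195 and 166 CPM in Dll1- and 133, 132, 130 and 119 CPM in Dll1+ cells, with -0.58 ± 0.06 (adjusted p = 0.00645). Both were lower in 4 of 4 mice and were called within each reporter. DNA methylation was not measured. The paper reports lower expression of cell cycle genes in Dll1+ cells, and the part of cycling in the fall of Uhrf1 and Dnmt1 was not tested. In PyMT-Dll1GFP mice Dnmt3b was lower as well, by -0.81 ± 0.13 (adjusted p = 0.0178), and in PyMT-Dll1mCh mice Arid4b was higher by 0.43 ± 0.08 (adjusted p = 0.0269).

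Between the reporters, 9 of these 16 factors were lower and 3 higher in PyMT-Dll1mCh mice in Dll1- cells, and 8 and 2 in Dll1+ cells, beside 17.9% of all tested genes lower and 18.7% higher in Dll1- cells and 15.4% and 15.2% in Dll1+ cells. The dioxygenase Tet2 stood at -2.14 ± 0.12 and -1.81 ± 0.12 (adjusted p = 0.000792 and 0.00309), and the imprint reader Zfp445 at -1.21 ± 0.09 and -1.08 ± 0.09 (adjusted p = 0.00105 and 0.00309). Kcnq1ot1, the paternally expressed noncoding RNA 161.8 kb from Cdkn1c, was lower by -1.76 ± 0.16 and -1.58 ± 0.16 (adjusted p = 0.00135 and 0.00332).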
